A study of Schizosaccharomyces pombe with 6 samples.

Results

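Contacts between chromosome fragments were compared between fission yeast held before mitosis and fission yeast held within it. The comparison uses 4 of the 6 cultures of the series. The 2 G2 phase cultures were strain MY284, which carries the temperature-sensitive allele cdc25-22, and the 2 M phase cultures were strain MY286, which carries nuc2-663. Both strains were grown at 26°C and moved to 36°C for 4 h to arrest them. The 2 remaining cultures, strain MY291 with cdc10-129 arrested in G1 phase by the same shift, are given beside the main values for orientation only. In GCC (genome conformation capture), cross-linked chromatin is cut with the restriction enzyme AseI, ends held together are ligated, and both ends of the ligated DNA are sequenced. A count is a read pair that joins a given pair of AseI fragments. For each phase the deposited table pools both replicates, so each value below is 1 pooled value a phase, no spread between replicates exists, and no test between phases was possible. Phase, strain and library preparation cannot be told apart. The control DNA product added before ligation was also a different one in each phase. Intervals are exact 95% binomial intervals, and they cover counting error only.

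Every pair of nuclear fragments was used 1 time. Adjacent fragments were left out, as were pairs with an end in the rDNA repeats at the ends of chromosome III (up to base 23379 and from base 2439432). The rDNA pairs held 36.8% of the non-adjacent nuclear counts of G2 phase and 39.7% of those of M phase. The compared network then held 1387785 counts over 41456 pairs (G2 phase), 1277995 over 37944 (M phase) and 1207616 over 46227 (G1 phase). Values were scaled to CPM, the counts that a total of 1000000 would hold, so 1 count is worth 0.721 CPM in G2 phase and 0.782 CPM in M phase. Pairs with 1 count made up 75.7% of the G2 phase pairs and 78.0% of the M phase pairs. Of the counts, 95.3% (G2 phase) and 95.7% (M phase) lay in pairs whose fragments have a stretch of 50 bp or more in common, the length of a read end. A read end from such a stretch fits both copies, so contacts between the copies and reads of 1 copy placed on the other cannot be told apart in these pairs. Coordinates are those of the tables, 1-based.

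The G2 and M arrests lie on either side of mitotic entry. Cdc25 is the phosphatase that activates the Cdc2 kinase and so starts mitosis. Nuc2 is a subunit of the anaphase-promoting complex (APC/C), the ubiquitin ligase that starts sister chromatid separation, and cells without it stop with condensed chromosomes. Fission yeast has 3 chromosomes. Their centromeres consist of a central core, flanked by inner (imr) repeats and by outer dg and dh repeats packed in heterochromatin. The subtelomeres, the silent mating-type cassettes and the long terminal repeats (LTRs) of the Tf1 and Tf2 retrotransposons are further families of repeated sequence, as are the wtf genes, which act as meiotic drivers. Most counts of these tables come from such families.

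The sequences on which the largest differences rested are shown first. They were read from the reference genome on chromosomes II and III, where the AseI ends of the fragments coincide with those of the tables, and credited to RefSeq (ASM294v3). The plus strand is given. The first pair holds 2 fragments annotated as a duplicated region on either side of the matmc cassette of the mating-type region, shown because their contacts had the lowest ratio of M to G2 phase there. Capitals mark the longest stretch that both have in common, which lies in opposite orientation in the 2 fragments.

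left mating-type flank, chrII:2129091-2129315: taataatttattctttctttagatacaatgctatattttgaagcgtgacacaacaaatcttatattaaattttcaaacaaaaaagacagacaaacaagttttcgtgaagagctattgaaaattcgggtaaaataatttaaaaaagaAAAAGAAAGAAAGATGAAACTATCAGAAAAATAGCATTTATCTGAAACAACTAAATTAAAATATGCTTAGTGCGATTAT
right mating-type flank, chrII:2137012-2137202: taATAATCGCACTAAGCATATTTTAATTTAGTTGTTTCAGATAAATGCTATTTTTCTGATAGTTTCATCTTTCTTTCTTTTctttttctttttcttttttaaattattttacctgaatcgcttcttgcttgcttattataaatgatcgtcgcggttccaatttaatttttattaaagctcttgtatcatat

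The next set is the short fragments that were lower in M phase in many copies. The tandem copy is found 4 times, without a difference in sequence, between genes annotated as malate permease or left without a name on the left arm of chromosome II. The centromere copy is found 3 times on chromosome II, again without a difference, and a fragment of 197 bp on chromosome III has most of its bases as well. Capitals mark the bases left by the AseI cut in the tandem copy, and in the centromere copy the stretch that the chromosome III fragment has as well.

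tandem copy, chrII:96810-97085: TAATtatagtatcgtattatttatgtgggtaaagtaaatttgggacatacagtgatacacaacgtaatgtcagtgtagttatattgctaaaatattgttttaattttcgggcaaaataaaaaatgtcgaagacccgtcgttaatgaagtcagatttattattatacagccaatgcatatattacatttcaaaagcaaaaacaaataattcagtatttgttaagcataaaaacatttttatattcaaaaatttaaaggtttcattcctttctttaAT
centromere copy, chrII:1600553-1600750: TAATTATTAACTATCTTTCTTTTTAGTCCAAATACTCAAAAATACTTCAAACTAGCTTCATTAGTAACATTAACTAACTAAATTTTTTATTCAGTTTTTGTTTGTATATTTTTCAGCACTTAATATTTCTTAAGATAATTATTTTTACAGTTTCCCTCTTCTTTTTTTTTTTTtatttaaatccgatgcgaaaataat

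The last set belongs to features that were higher in M phase. It holds the longest stretch that 2 glyceraldehyde 3-phosphate dehydrogenase genes have in common, a stretch that 3 LTR fragments of chromosome III have in common, and the fragment with the highest ratio of all, in which capitals mark the bases left by the AseI cut.

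glyceraldehyde 3-phosphate dehydrogenase stretch, chrII:579307-579509: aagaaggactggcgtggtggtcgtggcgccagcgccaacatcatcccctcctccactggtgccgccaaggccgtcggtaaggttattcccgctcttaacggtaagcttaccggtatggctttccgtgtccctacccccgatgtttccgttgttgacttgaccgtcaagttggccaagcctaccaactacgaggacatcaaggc
LTR stretch, chrIII:298789-298837: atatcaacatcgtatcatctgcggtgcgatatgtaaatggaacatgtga
short fragment, chrII:36990-37031: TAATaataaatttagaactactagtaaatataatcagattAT

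The balance of contacts between chromosomes differed little. Contacts within a chromosome made up 50.7% of the counts in G2 phase (50.6% to 50.8%) and 48.4% in M phase (48.3% to 48.5%), a difference of -2.28 percentage points in M relative to G2 phase. This direction depended on leaving out the rDNA: with the rDNA pairs kept the difference was 0.92 points the other way, and with each pair counted 1 time it was 2.16 points the other way. The largest part of the difference was in chromosome III, the shortest, whose own contacts held 212034 CPM in G2 phase and 183462 CPM in M phase, a log2 ratio of M to G2 phase of -0.21 (-0.22 to -0.20). Contacts of chromosome I with itself went from 184833 to 195789 CPM, and contacts of chromosome I with chromosome II from 237223 to 259111 CPM. The other chromosome pairs had log2 ratios between -0.07 and 0.04.

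Over short distances G2 phase held more counts, but M phase had more distinct pairs. Pairs less than 1 kb apart held 5321 CPM in G2 phase, 3814 CPM in M phase and 4625 CPM in G1 phase. Pairs 1 to 5 kb apart held 41310 and 30336 CPM in G2 and M phase, and pairs 5 to 10 kb apart 28989 and 21771 CPM. Expressed as fold, G2 phase was 1.40 times M phase under 1 kb, 1.36 times at 1 to 5 kb and 1.33 times at 5 to 10 kb. From 10 to 20 kb the tables were within 1.02-fold of each other. From 20 to 50 kb G2 phase was higher again, at 95771 CPM against 83844 CPM in M phase (1.14-fold). From 50 to 100 kb G2 phase was 1.08 times M phase. Beyond 100 kb M phase was slightly higher, up to 1.15-fold between 500 kb and 1 Mb. When each pair was counted 1 time, whatever its counts, the direction turned from 1 kb on: there were 172 distinct pairs 1 to 5 kb apart in G2 phase, 324 in M phase and 178 in G1 phase, and 148, 273 and 137 pairs 5 to 10 kb apart. Among pairs without a 50 bp stretch in common those 1 to 5 kb apart numbered 51, 201 and 60, and those 20 to 50 kb apart 149, 418 and 215. Under 1 kb there were 263, 245 and 171 distinct pairs. M phase thus had more pairs, with fewer counts each, at 1 to 10 kb.

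In counts, the difference under 1 kb was larger among pairs whose fragments have no 50 bp stretch in common. Of the intrachromosomal counts of such pairs, 8.63% in G2 phase, 3.90% in M phase and 3.96% in G1 phase were under 1 kb. G2 phase thus stood apart from both other phases here. Between 50 and 100 kb the share was 1.92% in G2 phase, 3.38% in M phase and 1.82% in G1 phase. Much of the excess under 1 kb lay in fragments that are next but one to each other: such pairs without a stretch in common held 1404 counts in G2 phase, 476 in M phase and 621 in G1 phase. Where the fragment between them was under 100 bp long the counts were 1177, 318 and 508, a G2 over M ratio of 3.41 (3.01 to 3.87). Where it was 100 bp or longer they were 227, 158 and 113, a ratio of 1.32 (1.08 to 1.63). The length of the fragment between thus moved with the result, and its part in the result was not tested.

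**Figure D1:**
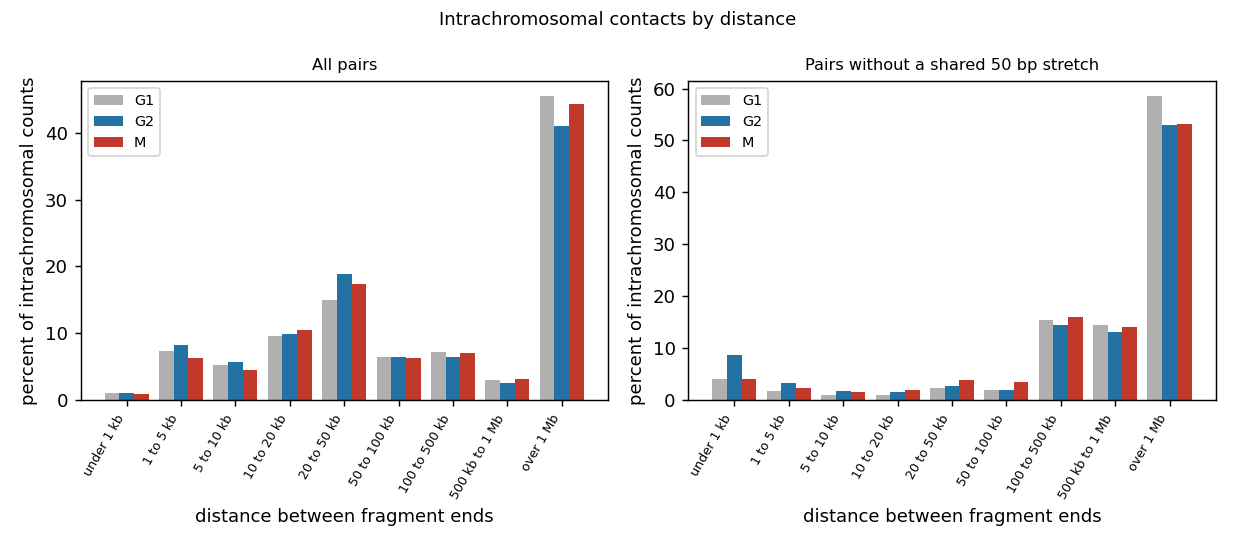
Percent of intrachromosomal counts (y axis) by how far apart the 2 fragments lie, from end to nearest end (x axis) in the pooled G1, G2 and M phase tables, over all pairs (left) and over pairs without a 50 bp stretch in common (right). G2 phase has the tallest bars under 10 kb and from 20 to 100 kb in the left panel, and on the right 8.63% under 1 kb against 3.90% in M phase.

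Single fragments were compared by their summed counts. Of 9191 fragments with a count in any phase, 748 had 50 or more counts in the G2 and M phase tables together, and these held 98.4% of the fragment ends of G2 phase and 98.8% of those of M phase. A difference of 2-fold or more in CPM was called. By this rule 59 fragments (7.89%) were higher in M phase and 131 (17.5%) were higher in G2 phase. The median log2 ratio of M to G2 phase over the 748 fragments was -0.09, and the quartiles were -0.75 and 0.36. This median turned to 0.24 without pairs that have a stretch in common and to 0.18 with each pair counted 1 time. The calls turned as well, to 49 towards M and 32 towards G2 phase in the first and 20 and 2 in the second. With both fragments 1000 bp or longer the calls were 40 and 17. Each of these sets was scaled to its own total. In CPM of all counts, pairs without a stretch in common had a log2 ratio of -0.28 as a set. Between the other phases, calls were fewer by the same rule: 34 fragments were higher in G1 than in G2 phase and 13 lower, while 4 were higher in M than in G1 phase and 82 lower.

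Fragment length separated the 2 kinds of call. The fragments higher in M phase had a median length of 2302 bp and those higher in G2 phase of 328 bp, against 1319 bp for all 748. Of the 189 fragments of 500 bp or less, 97 were higher in G2 and 2 in M phase. Of the 434 longer than 1000 bp, 17 were higher in G2 and 51 in M phase. The median log2 ratio was -1.23 for fragments up to 150 bp, -1.46 from there to 250 bp, -1.04 to 350 bp, -0.80 to 500 bp and -0.32 to 1000 bp. Above this it was 0.07 up to 2000 bp, 0.17 up to 4000 bp and 0.20 beyond. Across the 748 fragments the ratio and the length had a Spearman correlation of 0.54, given as a description, since the fragments share libraries and many are copies of each other. Relative to G1 phase the short fragments were lower in M phase as well, with a median log2 ratio of M to G1 phase of -0.72 for fragments of 500 bp or less and -0.07 for those of 1000 bp or more. Pairs with a fragment under 1000 bp held 21.1% of the counts in G2 phase, 15.1% in M phase and 20.2% in G1 phase. Because length moved with the ratio in this way, results for classes of fragment are given below both over all pairs and over pairs in which both fragments are 1000 bp or longer, the latter scaled to their own total. Class ratios without pairs that have a stretch in common, or with each pair counted 1 time, are also scaled to their own total unless stated otherwise.

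**Figure D2:**
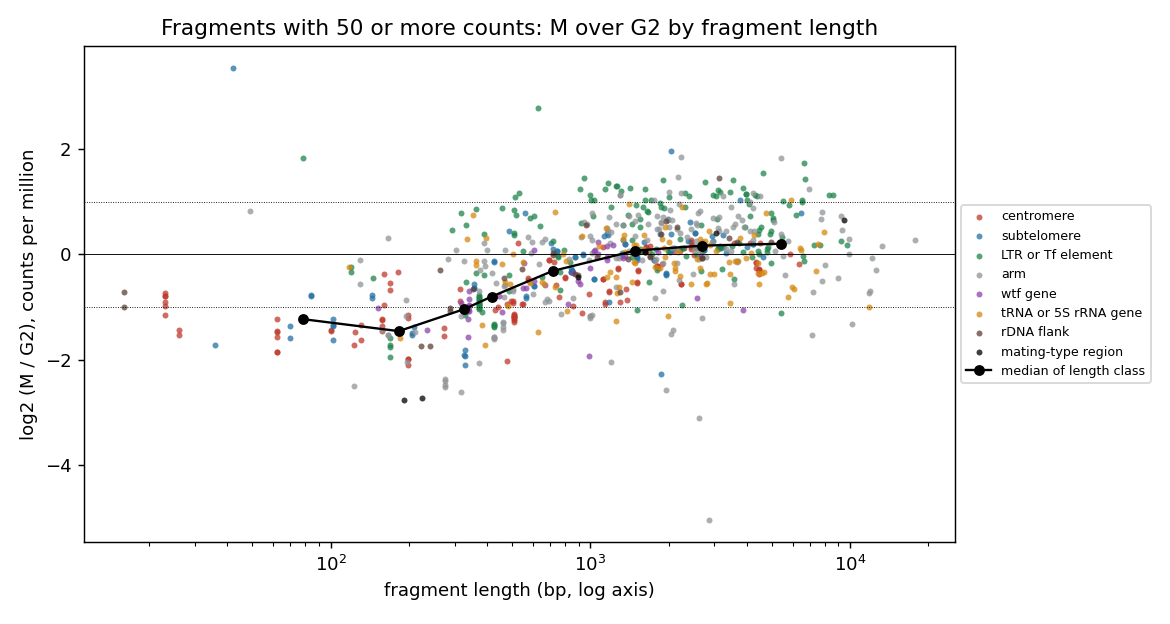
Log2 ratio of M to G2 phase in CPM (y axis) against fragment length (x axis, log scale) for fragments with 50 or more counts in the 2 tables together, coloured by annotation class. Points are fragments, the black line joins the medians of 8 length classes, which go from -1.23 and -1.46 in the shortest to 0.20 in the longest, and dotted lines mark 2-fold.

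Among fragments with at least 100 counts, the 10 with the lowest ratio included 8 of under 350 bp. The mating-type flanks shown above were both low in M phase. The left flank held 438 counts in G2 phase, 61 in M phase and 303 in G1 phase, and the right flank 435, 59 and 297. In G2 phase their CPM was 6.61 and 6.79 times that in M phase (47.7 and 46.2 CPM). Nearly all of this was contact with each other, 416 counts in G2 phase, 49 in M phase and 291 in G1 phase. The 4 tandem copies held 841 to 888 counts in G2 phase, 138 to 154 in M phase and 571 to 630 in G1 phase, so that all 4 were about equally high in each table and lowest in M phase. The copy shown had 640 CPM in G2 phase and 121 CPM in M phase.

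Copies at the centromeres and subtelomeres behaved alike within a family. The 3 short centromere copies of chromosome II held 953, 923 and 921 counts in G2 phase and 220, 215 and 197 in M phase, and the related fragment on chromosome III, just outside the window taken as centromere 3, 997 and 223. Their log2 ratios lay between -2.11 and -1.98. In G1 phase they held 466 to 516 counts, between the other phases. A subtelomeric fragment of 327 or 328 bp, present at 4 chromosome ends, held 1137 to 1190 counts in G2 phase, 254 to 299 in M phase and 739 to 828 in G1 phase.

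Of the 10 lowest fragments, 2 were longer than 1000 bp. The fragment with the lowest ratio of all was chrII:1044075-1046922, which holds ubi4, a polyubiquitin gene that serves in the stress response. It contains 321 stretches of 50 bp that occur more than once in the genome. It had 107 counts in G2 phase, 3 in M phase and 16 in G1 phase, a log2 ratio of -5.04 (-7.34 to -3.45). The 107 counts were spread over 87 partners, and none had more than 5 counts. The other was chrI:12724-14585, in the left subtelomere of chromosome I, with 235 counts in G2 phase, 45 in M phase and 85 in G1 phase. It contains no 50 bp stretch found elsewhere. Its contacts were with few partners, the largest with 89 counts (G2) and 14 (M). Its most frequent partner was chrI:11970-12687, next but one to it across a fragment of 36 bp.

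The 10 fragments with the highest ratios were, with 1 exception, 945 bp or longer. The exception was the fragment of 42 bp shown above, from the left subtelomere of chromosome II. It held 21 counts in G2 phase (15.1 CPM), 223 in M phase (174 CPM) and 24 in G1 phase. The log2 ratio of M to G2 phase was 3.53 (2.88 to 4.25). In G2 phase 20 of the 21 counts were with a single close neighbour, while in M phase there were 216 partners and 212 of them had 1 count each. Its left neighbour, chrII:34939-36989, held 95 counts in G2 phase, 342 in M phase and 62 in G1 phase, with 88 partners in G2 and 317 in M phase. The annotation places pseudogenes, a zinc finger protein among them, in both. The left neighbour contains no 50 bp stretch found elsewhere, while the fragment of 42 bp is too short to hold one. Of the M phase counts, 142 of the fragment of 42 bp and 206 of its left neighbour were with other chromosomes. The next fragment further left, chrII:33041-34938, had 16 and 7 counts, and the fragment at chrII:37080-38258 had 45 and 22, both lower in M phase. The fragment of 48 bp directly to the right of the short fragment had 3 and 11 counts, a log2 ratio of 1.99 (0.07 to 4.47).

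The next highest were the fragments of the glyceraldehyde 3-phosphate dehydrogenase genes, a glycolytic enzyme, whose common stretch is printed above. The fragment chrII:578175-580402 held 775 counts in G2 phase, 2571 in M phase and 2310 in G1 phase. The fragment chrII:2804738-2810161, which holds the copy annotated as gpd1, held 789, 2579 and 2329. Both are described by 1 pair: contacts between them made up 763 counts in G2 phase, 2562 in M phase and 2292 in G1 phase, a log2 ratio of M to G2 phase of 1.87. G2 phase was the low table here, and M and G1 phase were close to each other. The rest of the 10 were 4 LTR fragments with log2 ratios between 1.43 and 1.74, a fragment with an Hsp70 chaperone gene on chromosome I (40 and 102 counts) and a fragment with an LTR in the flank of the rDNA (42 and 106 counts).

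Other duplicated genes of the arms, most of them chosen after their values were seen, also had their lowest level in G2 phase. The 2 genes for translation elongation factor 2 (eft2-1 on chromosome I and eft202 on chromosome III) had 8994 counts with each other in G2 phase, 13653 in M phase and 13478 in G1 phase. The 3 genes for elongation factor 1-alpha, which brings aminoacyl-tRNA to the ribosome, had 2055 to 2094 counts a pair in G2 phase, 4049 to 4659 in M phase and 3981 to 4242 in G1 phase. Contacts between the glucose transporter genes ght5 and ght8, both on chromosome III, went from 2850 to 4696 counts, with 4416 in G1 phase. Of the 31 pairs of arm fragments with 1000 or more counts, 22 were higher in M phase and 9 lower in CPM, and 6 in each direction passed 2-fold. Over all pairs of fragments with 50 or more counts, 17.3% were 2-fold or more higher in M phase and 23.0% in G2 phase. The 19 of the 31 pairs in which both fragments are 1000 bp or longer had a median log2 ratio of 0.72. The duplicated block that holds cox11, an assembly factor of cytochrome oxidase, went from 10027 to 11069 counts in its most frequent pair, but from 1668 to 1004 in the adjoining pair of fragments of 504 bp, annotated as the proteasome gene rpn5-b and its copy. So within 1 duplicated block the longer fragments were higher and the shorter ones lower in M phase.

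**Figure D3:**
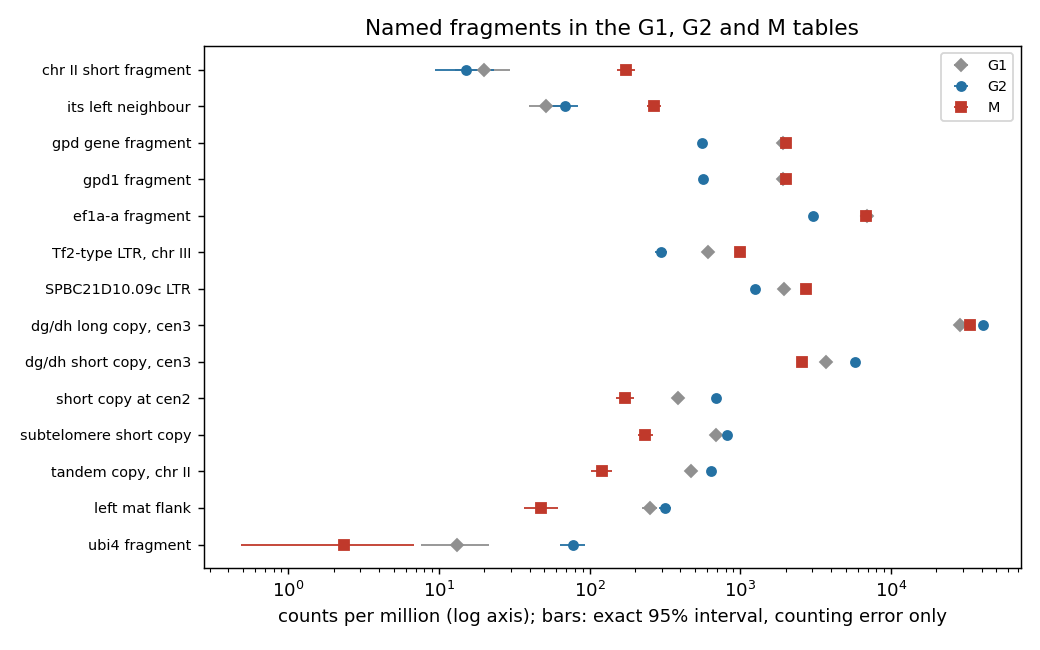
CPM (x axis, log scale) of 14 fragments named in the text in the pooled G1, G2 and M phase tables, with exact 95% intervals of counting error. The upper 7 are higher in M than in G2 phase, the lower 7 are lower, and for the fragments of gpd1 and ef1a-a the G1 phase value lies on the M phase value.

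Fragments were then grouped by annotation. Of the nuclear fragments outside the rDNA, 8619 were arm fragments without a listed repeat, 256 held an LTR or Tf element, 158 lay in the subtelomeres of chromosomes I and II (the outer 50 kb), 143 in the centromeres, 118 held a tRNA or 5S rRNA gene, 73 lay in the flanks of the rDNA, 47 held a wtf gene and 31 lay in the mating-type region. By the 2-fold rule, against 7.89% higher in M phase and 17.5% higher in G2 phase over all fragments tested, LTR and Tf fragments had the most calls towards M phase, 42 of 172 (24.4%), with 15 towards G2 phase. Centromere fragments had none of 118 towards M phase and 38 (32.2%) towards G2 phase. For wtf fragments it was 0 and 12 of 42, for subtelomere fragments 3 and 15 of 94, for arm fragments 12 and 36 of 188, for tRNA and 5S rRNA gene fragments 1 and 8 of 97, and for the rDNA flanks 1 and 5 of 30.

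Within fragments of 1000 bp or longer the classes differed as well. The median log2 ratio of M to G2 phase was 0.66 for 110 LTR and Tf fragments, 0.40 for 122 arm fragments, 0.14 for 49 subtelomere fragments, 0.05 for 15 fragments of the rDNA flanks, -0.04 for 15 wtf fragments, -0.13 for 71 tRNA and 5S rRNA gene fragments and -0.23 for 49 centromere fragments, against 0.14 over all 435. In fragments of 500 bp or less every class with 5 or more fragments had a median below 0, from -1.34 in 25 subtelomere fragments to -0.24 in 13 tRNA and 5S rRNA gene fragments. The tRNA and 5S rRNA gene class was the only one in which the short fragments did not have the lowest median of its 3 length groups.

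**Figure D4:**
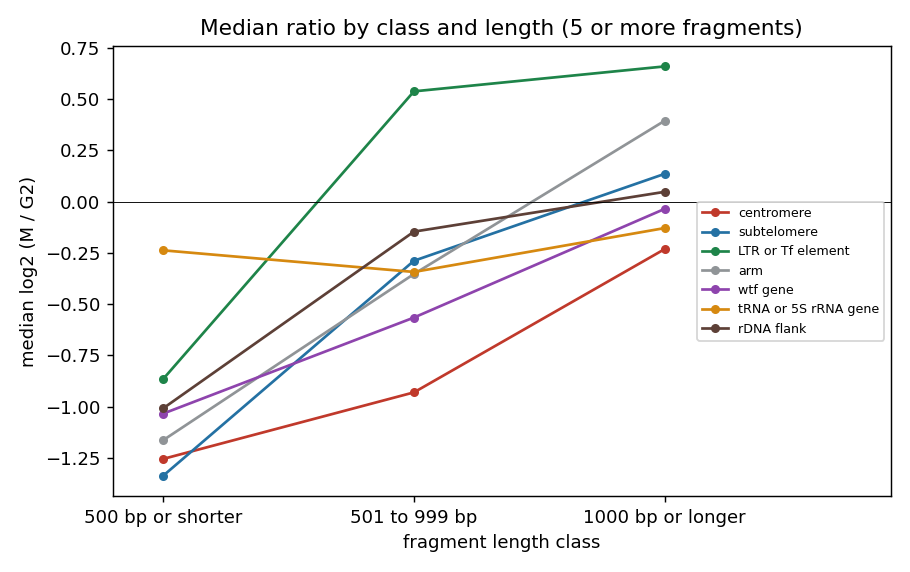
Median log2 ratio of M to G2 phase (y axis) in 3 classes of fragment length (x axis), 1 line an annotation class, shown where 5 or more fragments were tested. In the group of 1000 bp or longer the LTR and Tf class is highest (0.66) and the centromere class lowest (-0.23).

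Contacts among centromere fragments were the largest class, 551842 counts in G2 phase (397642 CPM) and 454060 in M phase (355291 CPM), a log2 ratio of -0.16 (-0.17 to -0.16). With both fragments 1000 bp or longer it was -0.17. With each pair counted 1 time the ratio turned, to 0.69. The difference was not even over the centromere. Contacts within the central core, where the centromeric histone H3 variant is found, went from 18818 to 9667 counts, a log2 ratio of -0.84, and -0.89 in the long fragments. Contacts of the core with the imr repeats went from 2290 to 1156 counts, a ratio of -0.87. Contacts of dg and dh repeats with each other went from 347416 to 273121 counts, a log2 ratio of -0.23, while contacts of dg and dh with imr repeats were higher in M phase, 59601 and 61117 counts, a log2 ratio of 0.16 (0.13 in the long fragments). In G1 phase the core contacts held 11748 counts and 9728 CPM, between M phase (7564 CPM) and G2 phase (13560 CPM).

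The centromeres also differed from each other. Contacts of centromere 3 with itself went from 167769 to 120695 counts, a log2 ratio of -0.36, and those of centromere 1 with itself from 29866 to 22053, a ratio of -0.32. Centromere 2 with itself was close to even, at 53980 and 48687 counts (-0.03). Between centromeres, contacts of 1 with 2 were higher in M phase (64992 and 65265 counts, log2 ratio 0.12), those of 1 with 3 lower (-0.20) and those of 2 with 3 lower (-0.09). In long fragments the order was kept, with -0.38 within centromere 3 and 0.09 between centromeres 1 and 2. Fragments of different length in the dg and dh repeats differed. A dg/dh fragment of 4452 bp found 4 times at centromere 3 had log2 ratios between -0.37 and -0.28, while the fragment of 507 bp that occurs 9 times over the 3 centromeres had ratios between -1.28 and -1.14 in every copy. These 2 fragments differ in sequence and position as well as length, and the part of each was not tested. Contacts of centromere fragments with the arms were lower in M phase, 11367 and 8265 counts, a log2 ratio of -0.34 (-0.38 to -0.30). Without the pairs that have a stretch in common, scaled to their own total, this ratio was 0.09, and with pairs of 3 or more counts it was -1.82. The pairs without a stretch in common held 9473 counts in G2 phase and 7658 in M phase. This was 0.683% and 0.599% of all counts, so on that scale they were lower in M phase as well.

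Contacts among the subtelomeres of chromosomes I and II were close to even, 255053 counts (G2) and 245253 (M), a log2 ratio of 0.06 (0.03 in long fragments). It was -0.0051 when the rDNA was kept, and 0.87 with each pair counted 1 time. Of the contacts between different ends, those of the left ends of chromosomes I and II were the most frequent and had the highest ratio (75412 and 78085 counts, 0.17). Both ends of chromosome I held 64854 and 61048 counts with each other (0.03). Contacts within the left end of chromosome I went from 7853 to 10380 counts, a log2 ratio of 0.52, and this was 0.54 in long fragments. Contacts of the right end of chromosome I with either end of chromosome II had ratios of -0.07 and -0.08. Subtelomere fragments with arm fragments had 11739 and 14035 counts, a log2 ratio of 0.38 (0.34 to 0.41). With both fragments 1000 bp or longer, scaled to their own total, it was 0.31. Without pairs that have a stretch in common it was 0.37, also scaled to their own total. The counts of these pairs were close, at 5956 in G2 phase and 5828 in M phase.

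Contacts among LTR and Tf fragments were higher in M phase, 277157 counts (G2) and 295312 (M), a log2 ratio of 0.21 (0.20 to 0.22). The difference lay in the LTRs that stand outside a Tf2 body. Of the 256 fragments 46 were taken from their annotation as holding part of a Tf2 body, and the contacts of these with each other were even, at 212806 and 194071 counts (-0.01). The group includes chrI:2437519-2438431, which is annotated only as a Tf1-like LTR and had 1722 and 3737 counts (1.24). Contacts between fragments with LTRs alone went from 43618 to 62845 counts, a log2 ratio of 0.65, and those between such a fragment and a Tf2 body from 20733 to 38396, a ratio of 1.01. In long fragments these were 0.81 and 0.92. Both appeared on the same chromosome (0.43 and 0.96) and between chromosomes (0.87 and 1.04). In G1 phase, contacts between fragments with LTRs alone held 54257 counts. Scaled by table size this was 44929 CPM, against 31430 CPM (G2) and 49175 CPM (M). G1 phase thus lay closer to M phase, and G2 phase was the low table here. Fragments with LTRs alone had a median log2 ratio of 0.59 for G1 over G2 phase and 0.08 for M over G1 phase. Their contacts with Tf2 bodies held 23561 CPM in G1 phase, between 14940 CPM (G2) and 30044 CPM (M). Of the long fragments with LTRs alone, 35 of 81 passed 2-fold towards M phase and 2 towards G2 phase, against none of the 29 long Tf2 body fragments in either direction and 51 (11.7%) and 17 (3.91%) of all 435 long fragments. Contacts of LTR and Tf fragments with other classes were higher in M phase for the rDNA flanks (1209 and 2768 counts, log2 ratio 1.31, but 0.63 without pairs that have a stretch in common and 0.27 with each pair counted 1 time), for tRNA and 5S rRNA genes (2414 and 4078, 0.88, but -0.18 without pairs that have a stretch in common) and for the subtelomeres (843 and 1285, 0.73), but lower for wtf genes (26725 and 20517, -0.26).

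Some Tf2 names stand at 2 chromosomes in the annotation, and these were kept apart. The fragments named tf2-12 on chromosome I held 47685 counts (G2) and 42296 (M), those named tf2-10 on chromosome II 42233 and 40884, and those named tf2-11 on chromosome II 40746 and 36466. Their log2 ratios were -0.05, 0.07 and -0.04. The fragment chrII:2423880-2432128, which holds the gene SPBC21D10.09c and an LTR, had 1746 counts in G2 phase, 3493 in M phase and 2370 in G1 phase. Its log2 ratio was 1.12 (1.04 to 1.20). Its contact with the LTR fragment 259508 bp away at chrII:2163365-2164372 had 17 counts in G2 phase, 72 in M phase and 69 in G1 phase, a log2 ratio of 2.20. This was not its most frequent contact: the pair with the Tf2 fragment chrII:1966685-1973960 had 60, 153 and 95 counts.

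The pairs of fragments with the highest ratios were all LTR pairs within chromosome III. The highest was chrIII:114627-118162 with chrIII:489317-490622, which had 11 counts in G2 phase, 116 in M phase and 28 in G1 phase, a log2 ratio of 3.52 (2.62 to 4.56). Both of these fragments also had high ratios with another LTR at chrIII:257428-258372 (14 and 114, and 14 and 112 counts). The remaining 2 pairs joined the LTR fragment chrIII:298787-299954 to chrIII:2035435-2040895 (14 and 123 counts, 28 in G1 phase) and to chrIII:2144895-2145186, in the gene lsm2 (23 and 120 counts, 31 in G1 phase). These 2 passed as pairs without a 50 bp stretch in common, but the stretch printed above shows that all 3 fragments have 49 bp in common. The pairs with the lowest ratios were a pair of imr fragments of centromere 1 (100 and 8 counts), a wtf element with a Tf1 LTR on chromosome III (122 and 11), 2 of the short centromere copies (152 and 17), the mating-type flanks (416 and 49), and 2 of the tandem copies (224 and 27).

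Contacts between wtf fragments were lower in M phase over all pairs, 42928 and 34115 counts, a log2 ratio of -0.21, but not in long fragments (0.03). The lower value was found in the shorter fragments. Single genes ranged widely: the fragments of wtf25 held 4084 and 2069 counts (-0.86), those of wtf1 6715 and 3943 (-0.65), those of wtf13 10203 and 9402 (0.00) and those of wtf19 8903 and 8501 (0.05). In the mating-type region contacts held 10728 and 11177 counts, a log2 ratio of 0.18. The most frequent pair there, 2 fragments of 1620 bp on either side of matmc, was even (5185 and 5020 counts), and chrII:2107846-2117276 with chrII:2130936-2133973 went from 3451 to 5011 counts (0.66). Contacts of arm fragments with each other held 94399 and 96165 counts, a log2 ratio of 0.15 (0.42 in long fragments, but -0.63 without pairs that have a stretch in common and -0.38 with each pair counted 1 time). This was made of opposite parts: pairs with a 50 bp stretch in common had 83598 and 90865 counts (0.24), and pairs without one 10801 and 5300 (-0.91 in CPM of all counts).

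**Figure D5:**
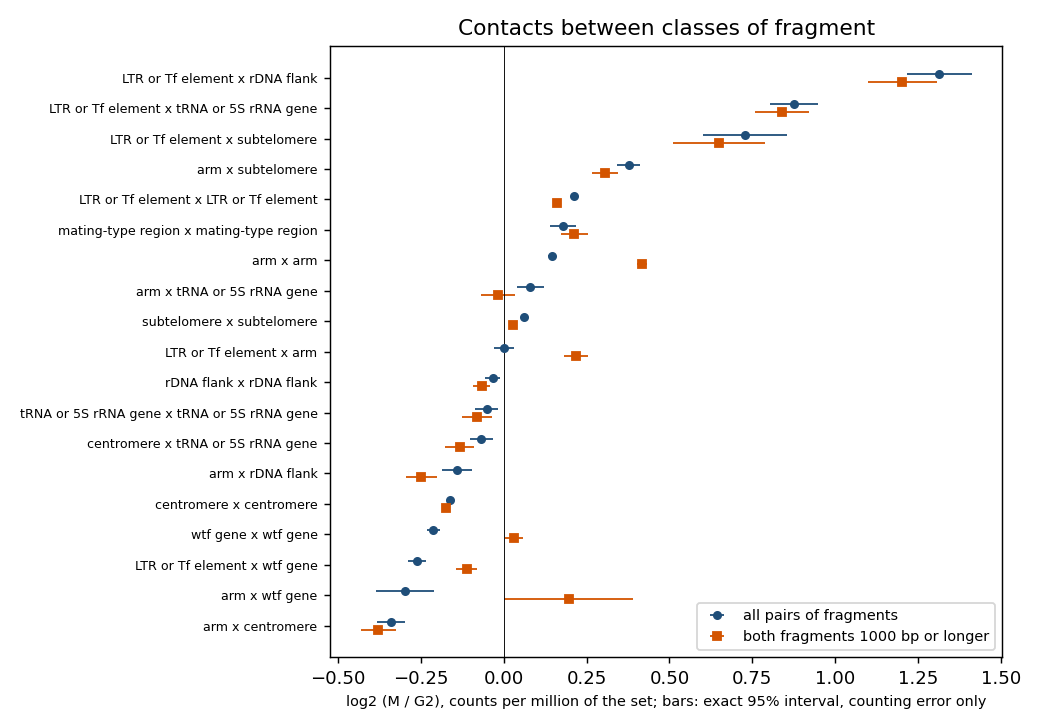
Log2 ratio of M to G2 phase (x axis) for contacts between classes of fragment with 1000 or more counts (y axis), over all pairs (circles) and over pairs of fragments that are both 1000 bp or longer (squares), each in CPM of its own set, with exact 95% intervals of counting error. LTR and Tf fragments with the rDNA flanks are highest (1.31) and arm with centromere fragments lowest (-0.34), and arm with arm is higher in the long set (0.42 against 0.15).

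The length of repeated sequence within a fragment also moved with the ratio. Among the 435 fragments of 1000 bp or longer, the median log2 ratio was -0.34 where no 50 bp stretch occurs elsewhere (34 fragments), 0.07 with 1 to 50 such stretches, 0.45 with up to 150, 0.89 with up to 300 and 0.60 with up to 600. It was 0.03 with up to 1200, 0.07 with up to 2500 and 0.14 beyond. The group of the highest median, 53 fragments, had 23 calls towards M phase and none towards G2 phase, against 11.7% and 3.91% over all 435. Both glyceraldehyde 3-phosphate dehydrogenase fragments, with 234 such stretches each, belong to it. The part of this extent in the differences between classes was not tested.

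In pairs of 50 kb bins, 1522 had 50 or more counts, with 96.6% of the counts of G2 phase and 96.4% of those of M phase. Of these, 481 (31.6%) were 2-fold or more higher in M phase and 54 (3.55%) in G2 phase, the reverse of the balance for fragments. This rested on pairs with repeated sequence in common: without them 5 bin pairs were higher in M and 12 in G2 phase, and with each pair counted 1 time 5 and 0. The median log2 ratio was 0.66, while the totals are equal by construction. The bin pairs with the most counts were centromeric or subtelomeric and went in both directions. A bin pair of centromeres 2 and 3 had a log2 ratio of -0.16 and a bin pair of centromeres 1 and 2 had 0.13. The bins at the left ends of chromosomes I and II had 0.17, and those at both ends of chromosome I 0.03. The pair of bins that holds most of the contacts within centromere 3 had 137041 and 101635 counts, a log2 ratio of -0.31. In 886 bin pairs the most frequent pair of fragments was an LTR pair, and these had a median of 0.94, 408 calls towards M phase and 3 towards G2 phase. The 167 bin pairs led by 2 tRNA or 5S rRNA gene fragments had a median of -0.05, with 6 and 15 calls, the 62 led by wtf pairs a median of -0.46, with 0 and 10, and the 76 led by arm pairs a median of 0.32, with 10 and 7. The single leading pair held a median of 66.3% of the counts of an LTR bin pair and 98.7% of those of a tRNA or 5S rRNA bin pair. A single pair of fragments thus held most of the counts of such a bin pair. The highest bin pair with at least 100 counts was led by the chromosome III LTR pair named above (22 and 132 counts). The lowest was led by a wtf element with an LTR, also within chromosome III (146 and 29 counts).

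Contacts between fragments that both lack repeated sequence, which include most genes, were few and were higher in G2 phase. They held 8279 counts in 4619 pairs in G2 phase, 3518 counts in 2912 pairs in M phase and 2653 counts in 1938 pairs in G1 phase, so G2 phase was 2.17 times M phase (2.08 to 2.25) in CPM. In G2 phase 775 of these pairs had 3 or more counts, and in M phase 89. Both tables held 925 of the pairs, which is 20.0% of the G2 phase pairs and 31.8% of those of M phase. The most frequent pair, chrII:1800172-1802068 with chrIII:383404-385885, had 51 counts in G2 phase, 44 in M phase and 40 in G1 phase, and adjoins a pair with a stretch in common that had 3820, 3337 and 3315 counts. Some fragments, chosen after their values were seen, were mostly seen in G2 phase. The fragments chrIII:2041448-2041765 and chrIII:2041782-2044394, close neighbours, had 53 and 75 counts in G2 phase, 18 and 17 in G1 phase and 8 each in M phase. A fragment of 123 bp near tps1, the trehalose phosphate synthase gene on chromosome I, had 55, 9 and 9 counts, of which 30, 6 and 4 were with chrII:247434-248511. The excess of G2 phase was present in every length class of repeat-free fragment, with log2 ratios of M to G2 phase, over all their contacts, between -0.81 and -0.35.

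Genes with a part in mitosis gave little. Of 15 regulators of mitotic entry 13 are named in the deposited annotation, and their 24 fragments held 173 counts in G2 and 94 in M phase. The fragments of cdc25, the gene mutated in the G2 phase strain, held 29 and 14. Of 15 APC/C genes 7 are named, with 174 and 151 counts, and 114 of the latter were in the fragments of apc5, which had 81 counts in G2 phase and contain a short repeated stretch. The 6 named condensin and cohesin genes held 123 and 78 counts, the 6 histone genes 116 and 74, the 6 targets of mitotic transcription factors 118 and 76, the 4 telomere and heterochromatin genes 73 and 56, and the 2 genes of securin and separase 28 and 17. All 7 lists had a ratio of M to G2 phase below 1, from -0.76 to -0.09 on the log2 scale, as had the repeat-free fragments as a whole. In all, 5 genes of these lists reached 50 counts and none of them passed 2-fold.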

How the data were processed

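GCC counts were taken from the deposited tables, in which the authors give how many read pairs joined every 2 AseI fragments, as a raw count. Both biological replicates of a phase are pooled there. The authors placed 50 bp paired ends with the Topography suite without mismatches. The labels name genome build ASM294v2. The number of per-sample columns left unused was 0. Per phase, the labels list 1 more table, not used here.

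Each pair entered 1 time. Mitochondrial, plasmid and rDNA fragments and adjacent pairs were left out, and counts were scaled to CPM. Ratios carry exact binomial intervals at the 95% level, given the sum of both tables, and shares carry Clopper-Pearson intervals. These cover counting error only. Where a table held 0 counts, the floor of 3 counts was used. Features with 50 or more counts in both tables together and a difference of 2-fold or more were called. Fragments were matched to the RefSeq genome by their AseI ends (3 of 9464 nuclear fragments were not matched), and 8741 contain no 50 bp stretch found elsewhere in the nuclear genome. Fragments under 50 bp are too short to hold such a stretch and count among the 8741. Classes follow the deposited annotation and windows around each centromere, the mating-type region and the chromosome ends. Python 3.11.15, pandas 2.3.3, numpy 2.4.6 and SciPy 1.17.1 were used. The calling rule was tried on simulated counts that held counting error only. This checks the working of the rule and not the calls reported here, since it held no variation between replicates.

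The text names the 10 fragments with the highest and the lowest ratio among those with 100 or more counts, the 5 such pairs of fragments and bins, the most frequent features, every class, the gene lists and an LTR pair. Other fragments and pairs were chosen after their values were seen. The members and lists were chosen with earlier results of these data known. Alternatives are given in the closing section.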

Additional observations from a re-analysis of the deposited data

Results flagged for a closer look

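Counts between nuclear and mitochondrial fragments were outside the comparison. They numbered 7421 in G2 phase, 9099 in M phase and 8725 in G1 phase, as raw counts that were not scaled to the totals of the tables.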

How the results depend on the processing

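No paired analysis was possible because the deposited columns pool both replicates of a phase, and for the same reason leaving out each replicate was not run. Settings that change which pairs enter, or count each pair 1 time, are scaled to their own totals. In the comparison 59 fragments were higher in M and 131 in G2 phase, 481 and 54 bin pairs, the intrachromosomal share differed by -2.28 points, and the log2 ratio of M to G2 phase was -0.16 within centromeres, 0.06 within subtelomeres, 0.21 within LTR or Tf and 0.15 within arm fragments. With the rDNA ends kept, 245 fragments and 139 bin pairs were higher in G2 phase, the share difference turned to 0.92 points, and the class ratios, in the same order, were -0.23, -0.0051, 0.14 and 0.078. Without pairs that have a 50 bp stretch in common, 32 fragments and 12 bin pairs were higher in G2 and 49 and 5 in M phase. The share difference was -0.41 points and the ratios were -0.46, 0.041, 1.12 and -0.63. The ratio turned for LTR or Tf with tRNA or 5S rRNA gene fragments (-0.18). It also turned for arm with centromere fragments (0.095), though only on this scale: their share of all counts was lower in M phase (0.683% and 0.599%). With each pair counted 1 time, 20 fragments and 5 bin pairs were higher in M phase and 2 and 0 in G2 phase, the share difference was 2.16 points and the ratios were 0.69, 0.87, 0.28 and -0.38. This setting also turned wtf with wtf (0.082), rDNA flank with rDNA flank (1.42), tRNA or 5S rRNA with each other (0.065), LTR or Tf with tRNA or 5S rRNA (-0.11) and LTR or Tf with wtf fragments (0.042). With pairs of 3 or more counts the share difference was -2.41 points, the arm ratio 0.18 and the ratio of arm with centromere fragments -1.82. Without the 10 most frequent pairs the difference was -2.12 points and the ratios were -0.18, 0.049, 0.23 and 0.066. With both fragments 1000 bp or longer, an alternative chosen after seeing the data, 17 fragments and 19 bin pairs were higher in G2 and 40 fragments in M phase, the difference was -1.49 points, the ratios were -0.17, 0.029, 0.16 and 0.42, and wtf with wtf turned to 0.032. With a minimum of 20 counts, 368 fragments and 152 bin pairs were higher in G2 and 849 bin pairs in M phase, and with no minimum 2240 and 3079 in G2 and 1340 and 4025 in M phase. At 1.5-fold there were 223 and 121 in G2 and 128 and 814 in M phase. The median over fragments, -0.085, was 0.24, 0.18 and 0.086 without pairs that have a stretch in common, with each pair counted 1 time and with long fragments, and -0.38 with the rDNA kept. By distance, counting each pair 1 time, also chosen after seeing the data, turned the difference in share of intrachromosomal contacts at 1 to 5 kb from -1.88 to 1.08 points and at 5 to 10 kb from -1.22 to 0.89 points. The causes were not tested, except that a lower minimum tests more features. Depth limits single pairs most, since most had 1 count.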
